A study of Mus musculus with 31 samples.

Results

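The nuclear genes of respiratory complexes II to V were followed in single olivocochlear neurons of the mouse brainstem. A gene was taken as a member when its symbol in the deposited normalized table was Sdha, Sdhb, Sdhc, Sdhd, Cycs or Cyc1, or began with Uqcr, Cox4, Cox5, Cox6, Cox7, Cox8 or Atp5, names with -ps left out. This gave 50 members of 37546 genes with a read, of which 4 belong to complex II, 9 to complex III, 18 to complex IV, 18 to complex V and 1 is cytochrome c. Among them are 3 genes that are no plain subunits: Atp5if1 encodes the inhibitor of the ATP synthase, Cox7a2l encodes a factor of respiratory supercomplexes, and Cox6c2 is annotated as a processed pseudogene.

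The respiratory chain of the inner mitochondrial membrane passes electrons from succinate dehydrogenase (complex II) and complex I through complex III and cytochrome c to complex IV, where oxygen is reduced. Complexes III and IV move protons across the membrane, and complex V, the ATP synthase, uses their return to make ATP. Most subunits are encoded in the nucleus and a few core subunits of complexes III, IV and V in mitochondrial DNA. Neurons cover most of their demand for ATP by this route.

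The 18 lateral olivocochlear (LOC) neurons lay in the lateral superior olive and the 13 medial olivocochlear (MOC) neurons in the ventral nucleus of the trapezoid body. Both are cholinergic cells that send axons to the cochlea. The cells were red neurons in acute slices from ChAT-IRES-Cre; tdTomato mice, in which Cre made from the choline acetyltransferase locus turns on a fluorescent protein, whereas the sample labels give every genotype as wild-type. After patch-clamp recording the contents of each cell were drawn into the pipette, and cDNA was made by Smart-seq2, so that each library is the aspirate of 1 recorded cell. The labels name no animal or age, and treatment is the same for all cells (RNA-seq after patch clamp).

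Since no animal is named, each group counts as 1 sample, no difference was tested, and an SD is the spread between cells. Total counts per library were 356412 to 1404896 in LOC and 598028 to 2627174 in MOC, and the deepest library, MOC 7, held 19.3% of all MOC counts. The label was checked with Chat, Slc18a3 and Slc5a7, the genes of acetylcholine synthesis, its vesicular transporter and choline uptake. They summed to fewer than 10 reads in 4 LOC and 5 MOC libraries and to 0 in LOC 14, LOC 16 and MOC 8, so the main results are also given without such libraries. Every library held reads of oligodendrocyte markers, whose summed level was 0.00213% to 23.8% of counts in LOC and 0.0357% to 12.1% in MOC. Summed microglial markers had a median of 101 CPM (counts per 1000000 counts) in LOC and 409 CPM in MOC, and mitochondrially encoded genes took a median of 21.4% of counts in LOC and 11.5% in MOC. Astrocyte markers summed to a median of 900.3 CPM in LOC cells, against 929.8 CPM in MOC cells. Those of inhibitory neurons had a median of 176 CPM in LOC cells, against 281 CPM in MOC cells, and general neuronal markers one of 2066 CPM in LOC cells, against 3383 CPM in MOC cells. The cholinergic genes went the other way, with a median of 416 CPM in LOC cells, against 10.97 CPM in MOC cells. No marker of these lists was at 0 throughout a group. The part of these differences in the results below was not tested, apart from the values given without such libraries.

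The members took a smaller share of the counts in LOC than in MOC neurons. They held 178731 of 14257802 counts in LOC, or 1.25% (exact 95% Clopper-Pearson interval 1.248 to 1.259), and 268638 of 13636468 counts in MOC, or 1.97% (1.963 to 1.977). These intervals cover counting error only, since reads without molecular identifiers are not independent molecules. By cell the share ran from 0.508% through a median of 1.28% to 2.07% in LOC, and from 1.07% through a median of 2.11% to 2.5% in MOC. The groups overlapped: 7 of 13 MOC cells lay above the highest LOC cell, 11 of 13 lay above the LOC median, and 5 of 18 LOC cells lay below the lowest MOC cell. The mean share was 1.30 ± 0.405% in LOC (SD, n = 18 cells) and 1.87 ± 0.474% in MOC (SD, n = 13 cells).

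The order of the groups was the same in each way of choosing libraries that was tried. Among libraries with at least 10 cholinergic reads the median was 1.18% in 14 LOC cells and 2.11% in 8 MOC cells. Among the libraries with fewer it was 1.46% in 4 LOC cells and 1.98% in 5 MOC cells. Without the 3 libraries with 0 cholinergic reads it was 1.28% in LOC and 2.05% in MOC, without the 3 highest in microglial markers it was 1.23% in LOC and 2.11% in MOC, and without the 6 libraries in which oligodendrocyte markers exceeded 10% of counts it was 1.18% in LOC and 1.98% in MOC. Counted against reads outside mitochondrial DNA alone, the median was 1.59% in LOC and 2.43% in MOC, with both groups spread more widely.

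**Figure D1:**
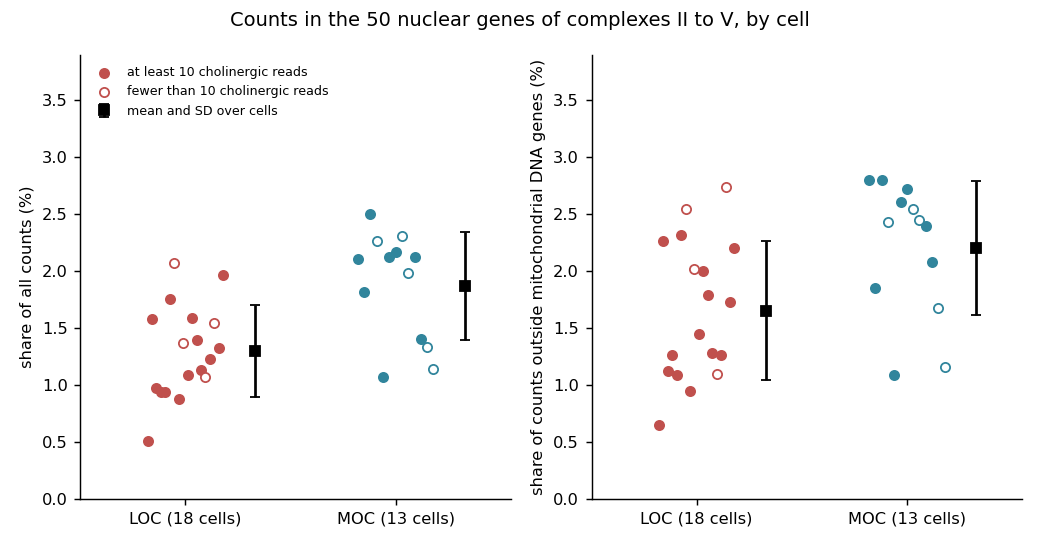
Share of each cell's counts in the 50 members, against all counts (left panel, %) and against counts outside mitochondrial DNA genes (right panel, %). Each point is 1 cell, open points are cells below 10 reads summed over Chat, Slc18a3 and Slc5a7, and the squares with bars are the mean and SD over cells; the share of all counts ran from 0.508% to 2.07% in LOC and from 1.07% to 2.5% in MOC.

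The difference was spread over nearly all members rather than resting on a few. Genes seen in at least 25% of either group's cells were called measured, and these were 48 of the 50 members and 17754 genes in all. Over the 48 measured members the median difference of mean log2(CPM + 1), LOC minus MOC, was -0.44, against -0.07 over all measured genes. The difference was below 0 for 44 of the 48 members, where 54.3% of all measured genes had one below 0. Among members of at least 50 CPM it was below 0 for 37 of 41, or 90.2%, against 46.8% of all genes at that level. On summed counts the ratio of LOC to MOC was below 1 for 47 of the 48 members, against 51.2% of all measured genes. The median of the members stayed below that of all genes in 4 other scalings: it was -0.55 against -0.13 with TMM, -0.60 against -0.15 with DESeq2 size factors, -0.52 against -0.11 in the deposited normalized table, and -0.34 against -0.03 on totals without mitochondrial genes. By these scalings the members below 0 numbered 40 to 46 of 48.

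The difference was wider among the libraries with at least 10 cholinergic reads (14 LOC, 8 MOC). There the median over the 48 members was -0.72, against -0.11 over all measured genes, and the medians were -0.84 for complex II, -0.68 for complex III, -0.76 for complex IV and -0.70 for complex V. In those libraries 43 of 48 members were below 0, and the 5 above it were Uqcrc1 at 0.54, Atp5f1c at 0.63, Sdha at 0.39, Cox7a2l at 0.15 and Atp5f1a at 0.02. Without the libraries of 0 cholinergic reads the median was -0.50, without the 3 highest in microglial markers -0.54, and without those above 10% of oligodendrocyte markers -0.38, against medians over all genes of -0.08, -0.05 and 0.004 in these sets. Without those above 10% of oligodendrocyte markers 38 of 48 members were below 0, the fewest of these sets, against 49.8% of all measured genes.

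Few single members differed by a wide margin. A size rule asked for 3 things: a summed CPM 2-fold or more above the other group's (values under 3 counts set to 3), a mean log2(CPM + 1) that exceeded the other by 1 or more, and detection in no fewer than 25% of cells on the higher side. No member met it in LOC, where 6.07% of all measured genes did. In MOC 4 members met it, or 8.33%, where 5.67% of all measured genes did, so the share of members past the rule was near that of genes in general. With DESeq2 size factors 4.71% of all measured genes met it in LOC and 7.41% in MOC. There 8 of the 48 members met it in MOC, a share above that of all genes. The 4 as reported were Sdhb of complex II, Uqcrc2 of complex III, cytochrome c (Cycs) and Cox5a of complex IV. Without LOC 9 the number was 2, namely Sdhb and Cycs, while leaving out any other single library gave 3 to 5. Sdhb and Cycs met it whichever single library was left out. With the libraries of at least 10 cholinergic reads alone 0 members met it in LOC, where 8.47% of measured genes did. In MOC 6 of 48 members met it there, again a share above that of measured genes, 6.9%.

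**Figure D2:**
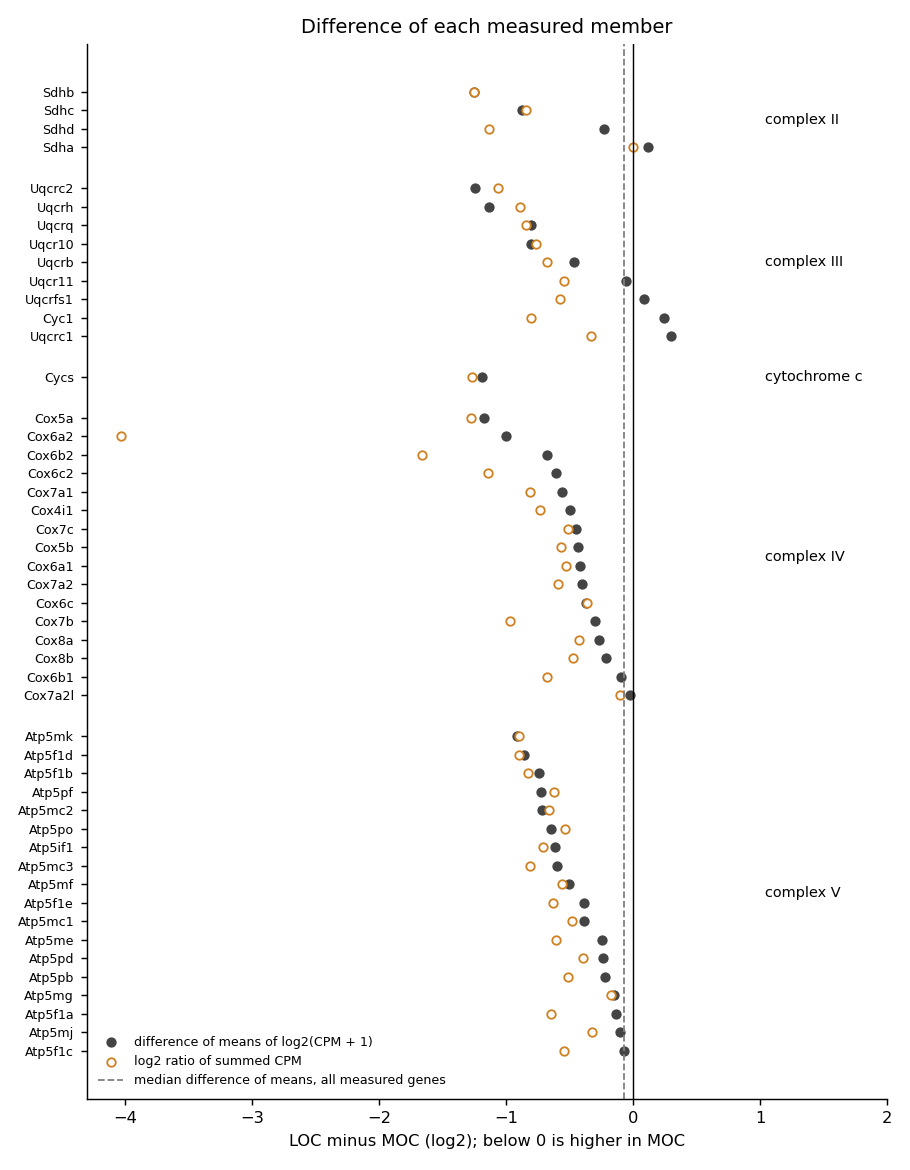
Difference of each of the 48 measured members, LOC minus MOC on the log2 scale (horizontal axis), by complex. Filled points are the difference of means of log2(CPM + 1), open points the log2 ratio of summed CPM, the dashed line the median difference of means of all measured genes (-0.07); 44 filled and 47 open points lie left of 0.

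The upstream sequences of 6 members are shown because 3 of them (Sdhb, Cycs and Cox5a) met the size rule, Uqcrh came close to it, and Sdha and Sdhd stood apart from Sdhb within complex II. Promoter windows from 250 bases before to 50 bases after the start were found in RefSeq tables of GRCm38.p6 for 38 of the 50 members, by gene identifier. Each stretch below is 120 bases, 5′ to 3′ on the gene's own strand, and ends before both the RefSeq start and the start of the gene in GENCODE M21. Capitals mark matches on either strand to GCGCA, any 1 base and GCGC in a row, the core of the site of nuclear respiratory factor 1 (NRF1), or to CCGGAAG, the core of sites of ETS factors such as GABP, both known regulators of respiratory genes.
Sdha, chr13:74350281-74350400, minus strand: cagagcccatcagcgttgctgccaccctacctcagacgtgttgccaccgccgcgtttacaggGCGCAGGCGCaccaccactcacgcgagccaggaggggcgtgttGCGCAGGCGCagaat
Sdhb, chr4:140961083-140961202, plus strand: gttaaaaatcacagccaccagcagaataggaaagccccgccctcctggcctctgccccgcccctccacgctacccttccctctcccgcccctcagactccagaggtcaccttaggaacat
Sdhd, chr9:50603850-50603969, minus strand: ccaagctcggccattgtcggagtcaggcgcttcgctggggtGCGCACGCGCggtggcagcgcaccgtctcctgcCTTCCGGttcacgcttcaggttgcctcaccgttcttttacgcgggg
Uqcrh, chr4:116075072-116075191, minus strand: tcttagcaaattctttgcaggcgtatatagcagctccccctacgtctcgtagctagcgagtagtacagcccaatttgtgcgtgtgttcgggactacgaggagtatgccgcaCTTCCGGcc
Cycs, chr6:50566570-50566689, minus strand: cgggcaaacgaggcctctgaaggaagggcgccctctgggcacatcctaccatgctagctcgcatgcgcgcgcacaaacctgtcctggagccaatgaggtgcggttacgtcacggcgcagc
Cox5a, chr9:57521112-57521231, plus strand: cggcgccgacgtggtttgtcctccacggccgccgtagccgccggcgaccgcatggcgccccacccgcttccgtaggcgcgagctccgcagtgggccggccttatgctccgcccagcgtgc

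Sdhd carried a match to each motif, the Sdha stretch 2 matches to the NRF1 motif and the Uqcrh stretch 1 match to CCGGAAG. The stretches of Sdhb, Cycs and Cox5a held no exact match to either, while the Sdhb window held 1 match to CCGGAAG after the start, outside the printed stretch. Only exact matches were searched. A stretch that differs from a motif by 1 base, such as tcgcatgcgc in Cycs against the NRF1 motif, is therefore neither marked nor counted. In the whole 300-base windows the NRF1 motif was found for 11 of the 38 members (28.9%), against 5.19% of 27025 genes. Those genes are all that had a window, whether or not they were read here, and were not matched to the members in level. CCGGAAG was found for 13 members (34.2%), against 9.93% of genes. AAGATGGC, the core of the YY1 site, was found for 3 members (7.89%), against 3.19% of genes. The motifs were searched on both strands, and 0 matches to different motifs overlapped in the members' windows. A match is a description of the letters and not a site of binding.

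Complex II oxidises succinate and feeds the electrons into the chain, and its 4 subunits did not differ alike. Sdha (chr13:74322254-74350280, minus strand, GRCm38) encodes the flavoprotein subunit that binds succinate. It ran from 77.3 CPM through a median of 311 to 600.3 CPM in LOC, and from 78.7 through 285 to 968 CPM in MOC. Summed it stood at 330.5 CPM in LOC cells (95% Poisson interval 321 to 340.1), against 329.9 CPM in MOC cells (320.3 to 339.6), so that it was the one measured member whose summed ratio was not below 1. The difference of means was 0.12, and lay between -0.05 and 0.22 in the 4 other scalings.

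Sdhb (chr4:140961203-140979193, plus strand, GRCm38) encodes the iron-sulphur subunit, to which Sdha passes its electrons. It ran from 5.80 CPM through a median of 127 to 416 CPM in LOC, and from 2.88 through 395 to 1319 CPM in MOC. Most MOC cells were high and the groups overlapped: 11 of 13 MOC cells lay above the LOC median and 3 above the highest LOC cell, while the lowest value of all belonged to MOC 13, which also held only 1 cholinergic read. Summed it stood at 155 CPM in LOC cells (148 to 161), against 368 CPM in MOC cells (358 to 378). The mean log2(CPM + 1) was 6.66 ± 1.66 in LOC (SD, n = 18 cells) and 7.91 ± 2.003 in MOC (SD, n = 13 cells), a difference of -1.26.

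Sdhc and Sdhd encode the 2 membrane anchors of the complex. Sdhc stood at 86.1 CPM in LOC cells, against 154 CPM in MOC cells, with a difference of means of -0.87. Sdhd stood at 68.0 CPM in LOC cells, against 149 CPM in MOC cells, but its difference of means was -0.23, since MOC cells ran from 0 to 1144 CPM with a median of 84.1, against 0 to 146 CPM with a median of 52.4 in LOC. Leaving out MOC 4, the cell at 1144 CPM, gave 0.15. Over the 4 genes the median difference was -0.55, and -0.27 without LOC 8, which held 0 reads of Sdhc.

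Set against each other per length (counts per kb of exon), some but not all pairs of complex II subunits had other proportions in the groups. The ratio of Sdhb to Sdha had a median of 0.774 in LOC, with 6 of 18 cells above 1, and of 1.51 in MOC, with 9 of 13 cells above 1. The ranges overlapped widely, from 0.0211 to 3.27 in LOC and from 0.00582 to 30.9 in MOC. Among libraries with at least 10 cholinergic reads the medians were 0.754 in LOC and 1.82 in MOC. The ratio of Sdhd to Sdha had a median of 0.725 in LOC and 1.06 in MOC, and that of Sdhb to Sdhd 0.929 in LOC and 1.38 in MOC. For Sdhc to Sdha the medians were close, at 0.303 in LOC and 0.316 in MOC. For Sdhd to Sdhc the median was higher in LOC, at 2.56, than in MOC, at 1.92. That order turned among libraries with at least 10 cholinergic reads, to 1.49 in LOC and 3.79 in MOC. These pairs, like those of the other complexes below, were chosen after their values were seen.

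Complex III takes electrons from ubiquinol and hands them to cytochrome c. Its most abundant transcripts per length of the union of exons were Uqcr11 and Uqcr10, small subunits of the complex. Levels per length are given as TPM, the counts per kb of exon scaled to a sum of 1000000 over all genes. Uqcr11 stood at 1436 TPM in LOC and 2105 in MOC, and Uqcr10 at 847 in LOC and 1442 in MOC. Uqcr11 ran from 159 CPM through a median of 309.9 to 774 CPM in LOC, and from 48.0 through 490.2 to 1048 CPM in MOC, with a difference of means of -0.05. Uqcr10 ran from 41.0 CPM through 203 to 427 CPM in LOC, and from 144 through 308 to 966 CPM in MOC, with a difference of -0.80. In 11 of 13 MOC cells Uqcr10 was above the LOC median.

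Uqcrc1 and Uqcrc2 encode the pair of large core proteins of complex III, and they differed in opposite directions by the means over cells. Uqcrc2 (chr7:120635176-120659524, plus strand) was read in 15 of 18 LOC and 13 of 13 MOC cells. It ran from 0 CPM through a median of 62.9 to 884 CPM in LOC, and from 1.10 through 143 to 653 CPM in MOC. No MOC cell exceeded the highest LOC cell, LOC 7, and 10 of 13 exceeded the LOC median. Summed it stood at 84.5 CPM in LOC cells (79.8 to 89.4), against 176 CPM in MOC cells (169 to 183), and the difference of means was -1.25. Its SD over cells was wide, at 2.96 in LOC and 2.45 in MOC.

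The difference of Uqcrc2 was also the least steady of those past the size rule. It no longer met the rule when 1 of the libraries LOC 2, LOC 5, LOC 8, LOC 9, LOC 17, LOC 18, MOC 2 or MOC 9 was left out, with differences from -1.20 to -0.95. Without the 6 libraries above 10% of oligodendrocyte markers (LOC 2, LOC 5, LOC 9, LOC 17, MOC 6 and MOC 7) it was 0.15. It also missed the rule on totals without mitochondrial genes, in the deposited normalized table, with libraries thinned to 300000 counts, with a pseudocount of 10 (-0.84) and when the 3 libraries highest in microglial markers were left out (-0.84). Uqcrc1, in contrast, ran from 47.7 CPM through a median of 387 to 896 CPM in LOC, and from 4.46 through 331 to 1168 CPM in MOC. Its difference of means of 0.30 was the widest toward LOC of any measured member, yet summed it stood at 370.0 CPM in LOC cells (360.1 to 380.1), against 467 CPM in MOC cells (455 to 478). The 2 summaries thus gave opposite signs, and without MOC 2, the lowest cell, the difference was -0.15.

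Cyc1, the gene of cytochrome c1, and Uqcrfs1, the gene of the Rieske iron-sulphur protein, had the same split between their summaries. Cyc1 had a difference of means of 0.24, with 209 CPM summed in LOC and 364 CPM in MOC. Its SD was 0.654 in LOC and 2.58 in MOC, where MOC 2 and MOC 4 were below 10 CPM and MOC 5 reached 1052 CPM. Without MOC 4 the difference was -0.20. Uqcrfs1 had a difference of 0.09 (-0.08 to 0.19 in the 4 other scalings), with 190.2 CPM in LOC cells, against 283 CPM in MOC cells, and -0.42 without MOC 13.

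The other small subunits of complex III differed one way. Uqcrq was above the LOC median in all 13 MOC cells, and 13 of 18 LOC cells lay below the lowest MOC cell. It ran from 104 CPM through 249 to 471 CPM in LOC and from 282 through 397 to 688 CPM in MOC, with SDs of 0.577 in LOC and 0.458 in MOC that were among the smallest of the members. Uqcrh, the gene of the hinge protein that borders cytochrome c1, had 258 CPM in LOC cells, against 479 CPM in MOC cells, with a difference of -1.13, and -0.77 without LOC 14, a cell at 1.42 CPM. Uqcrb had 140.3 CPM in LOC cells, against 225 CPM in MOC cells, a difference of -0.46. Over the 9 genes of complex III the median difference was -0.46, and 0.0771 without the 6 libraries rich in oligodendrocyte markers.

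Cytochrome c carries electrons from complex III to complex IV. Cycs (chr6:50562563-50566538, minus strand) ran from 11.98 CPM through a median of 50.7 to 141 CPM in LOC, and from 33.4 through 129 to 336 CPM in MOC. The groups overlapped in their middle range: 11 of 13 MOC cells lay above the LOC median, 5 above the highest LOC cell, and 2 of 18 LOC cells above the MOC median. Summed it stood at 56.7 CPM in LOC cells (52.8 to 60.7), against 136 CPM in MOC cells (130.1 to 142.5). The mean log2(CPM + 1) was 5.68 ± 1.03 in LOC (SD, n = 18 cells) and 6.86 ± 0.908 in MOC (SD, n = 13 cells), a difference of -1.19 that lay between -1.34 and -1.06 as each library was left out in turn. Without the 6 libraries rich in oligodendrocyte markers it was -0.96, and the size rule was not met. Per length, Cycs had a median ratio to Cyc1 of 0.170 in LOC and 0.334 in MOC.

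**Figure D3:**
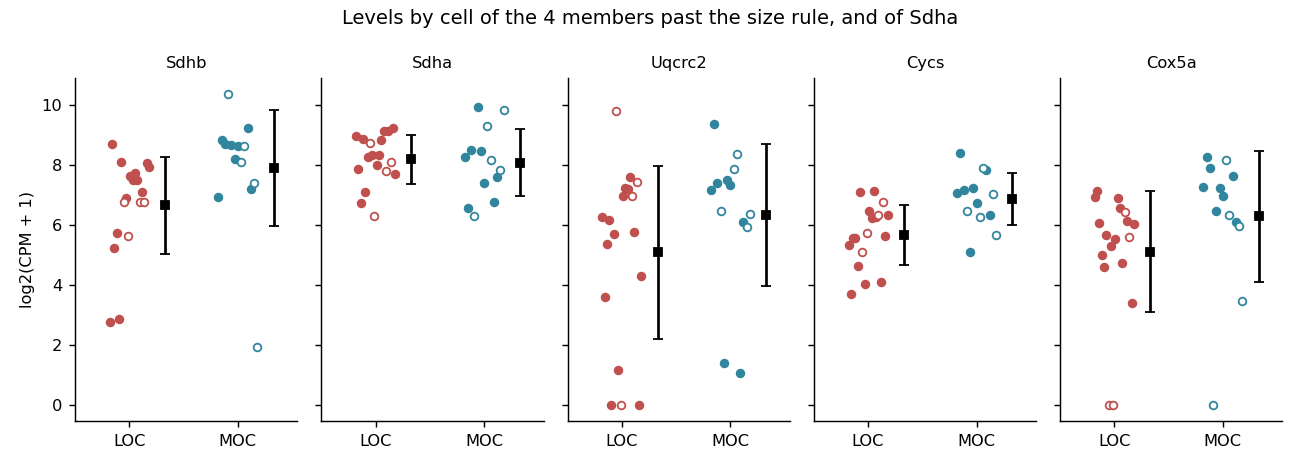
Level in each cell, as log2(CPM + 1), of the 4 members that met the size rule in MOC and of Sdha for comparison. Each point is 1 cell, open points are cells below 10 reads summed over Chat, Slc18a3 and Slc5a7, and squares with bars are the mean and SD over cells; for Sdhb, Cycs and Cox5a 11 of 13 MOC cells, for Uqcrc2 10 and for Sdha 5 lie above the LOC median.

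Complex IV, cytochrome c oxidase, reduces oxygen. Its nuclear subunits surround a core encoded in mitochondrial DNA. Among them Cox8a, Cox6a1 and Cox4i1 had the highest levels per length of all members. By the union of exons Cox8a led, at 2510 TPM in LOC and 3376 in MOC, and Cox6a1 at 1956 in LOC and 2832 in MOC. By the longest coding transcript Cox4i1 led, at 2695 TPM in LOC and 4415 in MOC. Cox8a ran from 211 CPM through a median of 591 to 1355 CPM in LOC, and from 129 through 893 to 1536 CPM in MOC. Cox6a1 ran from 249 CPM through 501 to 1052 CPM in LOC, and from 241 through 769 to 1360 CPM in MOC. Both groups overlapped over most of their range, with differences of means of -0.27 for Cox8a and -0.42 for Cox6a1.

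Cox4i1, the largest nuclear subunit and the common form of subunit IV, had the highest CPM within the complex. It stood at 1069 CPM in LOC cells (1052 to 1086), against 1772 CPM in MOC cells (1749 to 1794), with a difference of means of -0.50. Cox5a (chr9:57521274-57532426, plus strand), the partner of Cox4i1 early in assembly, was much lower. It ran from 0 CPM through a median of 48.7 to 141 CPM in LOC, and from 0 through 125 to 310.2 CPM in MOC, with 6 of 13 MOC cells above the highest LOC cell. Summed it stood at 61.5 CPM in LOC cells (57.5 to 65.7), against 149 CPM in MOC cells (143 to 156), and the difference of means was -1.18. That difference was -0.88 without LOC 7 or without LOC 9, both of which held 0 reads of the gene, and the size rule was then not met. It was also not met without the 3 libraries highest in microglial markers (-0.73), without those rich in oligodendrocyte markers (-0.65) and with a pseudocount of 10 (-0.98). An unstranded library cannot separate Cox5a from Gm26631 on the opposite strand, whose own count was 9.003% of that of Cox5a.

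The other common subunits of complex IV, among them Cox5b, Cox6b1, Cox6c, Cox7a2, Cox7b and Cox7c, had differences from -0.45 to -0.09. Cox7a2l, the supercomplex factor, was the nearest to 0 at -0.02, with 128 CPM in LOC cells, against 137 CPM in MOC cells. All 16 measured members of the complex had differences below 0 as reported, and their median was -0.43. The 3 nearest to 0 did not keep that sign in every setting: on totals without mitochondrial genes Cox7a2l was at 0.08 and Cox6b1 at 0.01, by medians over cells Cox8b was at 0.14, and with single libraries left out Cox7a2l reached 0.23, Cox6b1 0.04 and Cox8b 0.10. Per length the median ratio of Cox5a to Cox5b was 0.115 in LOC and 0.207 in MOC.

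Second isoforms of complex IV subunits, known from heart, skeletal muscle, lung or testis, were at low levels or, for Cox4i2 in LOC, without a read. Cox6a2, the muscle form of subunit VIa, had reads in 2 of 18 LOC cells and 4 of 13 MOC cells and stood at 0.421 CPM in LOC cells (0.154 to 0.916), against 6.89 CPM in MOC cells (5.57 to 8.44). It formed 0.0762% of the Cox6a1 and Cox6a2 total per length in LOC and 0.859% in MOC, and reached 9.25% in MOC 13. Itgad overlaps Cox6a2 on the opposite strand, with 34 reads, where the member had 100. The lowest, median and highest cells of Cox6a2 were 0, 0 and 5.91 CPM in LOC and 0, 0 and 57.6 CPM in MOC.

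Cox6b2, the testis form of subunit VIb, ran from 0 CPM through a median of 0.785 to 63.7 CPM in LOC, and from 0 through 4.02 to 146 CPM in MOC. Its share of the pair with Cox6b1 was 1.045% in LOC and 2.04% in MOC. Cox7a1, the muscle form of subunit VIIa, ran from 0 CPM through 0 to 23.4 CPM in LOC, and from 0 through 1.44 to 17.9 CPM in MOC, a share of 1.45% in LOC and 1.69% in MOC. Cox8b, the heart and muscle form of subunit VIII, ran from 0 CPM through 1.22 to 31.9 CPM in LOC, and from 0 through 1.01 to 46.0 CPM in MOC, a share of 1.69% in LOC and 1.75% in MOC. The single cells with the highest values were LOC 4 and MOC 4 for Cox6b2, LOC 12 and MOC 7 for Cox7a1, and LOC 2 and MOC 3 for Cox8b, so no one cell carried all of them.

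Over all pairs, second isoforms made up 1.11% of each LOC cell's pair total on average and 1.24% of each MOC cell's, a difference of -0.14 percentage points that was 0.08 among libraries with at least 10 cholinergic reads. The 2 members that were not measured belong here as well. Cox4i2, the lung form of subunit IV, had 0 reads in LOC, which allows up to 0.210 CPM over the group, and 11 reads in 3 MOC cells, 9 of them in MOC 7. Cox7b2 had reads in 2 LOC cells and 1 MOC cell, at 3.93 CPM in LOC cells, against 0.367 CPM in MOC cells. Its share of the pair with Cox7b was 3.53% in LOC and 0.174% in MOC, and reached 20.5% in LOC 9.

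Complex V turns the proton gradient into ATP through a rotating membrane ring joined to a catalytic head. All 18 members had differences below 0, with a median of -0.44 and a range from -0.91 to -0.07, and none met the size rule. On totals without mitochondrial genes 1 of them, Atp5f1c, was above 0, at 0.03, as were Atp5f1c and Atp5f1a among libraries with at least 10 cholinergic reads. With single libraries left out Atp5f1c reached 0.14 and Atp5mj 0.08. Atp5f1b and Atp5f1a, the beta and alpha subunits that form the head, had the highest levels of the complex per length of the union of exons. They stood at 659 and 513 TPM in LOC and 1175 and 808 in MOC for the beta and the alpha subunit. Atp5me and Atp5pd were also at 513 in LOC. By the longest coding transcript Atp5f1b was again first, at 1166 TPM in LOC and 2047 in MOC, and Atp5mc3 was next, at 953 in LOC and 1653 in MOC. Atp5f1b ran from 321 CPM through a median of 1194 to 2975 CPM in LOC, and from 850.1 through 1570 to 4216 CPM in MOC. It had the highest summed CPM of any member, at 1158 in LOC cells (1141 to 1176), against 2057 in MOC cells (2033 to 2081), with a difference of means of -0.74. Atp5f1a ran from 210.1 CPM through 637 to 1301 CPM in LOC, and from 12.3 through 941 to 1717 CPM in MOC. Its difference was -0.14, held near 0 by MOC 2 at 12.3 CPM, and was -0.61 without it.

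The central stalk showed a like spread. Atp5f1c, the gamma subunit at its axis, had 364 CPM in LOC cells, against 532 CPM in MOC cells, with a difference of -0.07, the smallest of the complex. Atp5f1d, the delta subunit, had 343 CPM in LOC cells, against 638 CPM in MOC cells, with a difference of -0.86, with 12 of 13 MOC cells above the LOC median. Cbarp lies on the opposite strand of Atp5f1d with a count of 38.4% of the member's, so the reads of this member are uncertain. Atp5f1e, the epsilon subunit, had a difference of -0.39.

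Among the peripheral and membrane subunits Atp5mk and Atp5pf differed most. Atp5mk, a small subunit that links pairs of ATP synthases, ran from 15.6 CPM through a median of 215 to 539 CPM in LOC, and from 171 through 391 to 590 CPM in MOC. Here 8 of 18 LOC cells lay below the lowest MOC cell and 11 of 13 MOC cells above the LOC median, and the difference was -0.91. Atp5pf, the coupling factor of the stalk, had a difference of -0.73, and Atp5po, the subunit that joins stalk and head, one of -0.65. The other stalk and membrane subunits, Atp5pb, Atp5pd, Atp5me, Atp5mf, Atp5mg and Atp5mj, had differences from -0.50 to -0.10, and their summed CPM ran from 32.5 for Atp5mg to 312 for Atp5pd in LOC, and from 36.7 for Atp5mg to 409 for Atp5pd in MOC. Atp5if1, the inhibitor that stops the enzyme from running backward, had 112 CPM in LOC cells, against 182 CPM in MOC cells. Its median ratio to Atp5f1b per length was 0.293 in LOC and 0.291 in MOC, so it kept nearly the same proportion to the enzyme's beta subunit.

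The ring of complex V is built from subunit c, whose mature protein is the same whether made from Atp5mc1, Atp5mc2 or Atp5mc3. Atp5mc3 (older name Atp5g3) gave most of the transcripts per length in both groups, at a mean of 72.8 ± 8.82% in LOC (SD, n = 18 cells) and 75.2 ± 8.02% in MOC (SD, n = 13 cells). By cell its share ran from 56.7% to 90.8% in LOC and from 62.4% to 94.0% in MOC. Atp5mc1 held 19.8% of the summed level in LOC and 16.5% in MOC, and Atp5mc2 held 8.59% in LOC and 8.15% in MOC. The make-up of the ring's transcripts thus differed by less than the spread between cells, although all 3 genes had lower CPM in LOC. The mean share of Atp5mc3 differed by -2.35 percentage points, by -0.77 without MOC 4, and by 0.12 among libraries with at least 10 cholinergic reads.

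**Figure D4:**
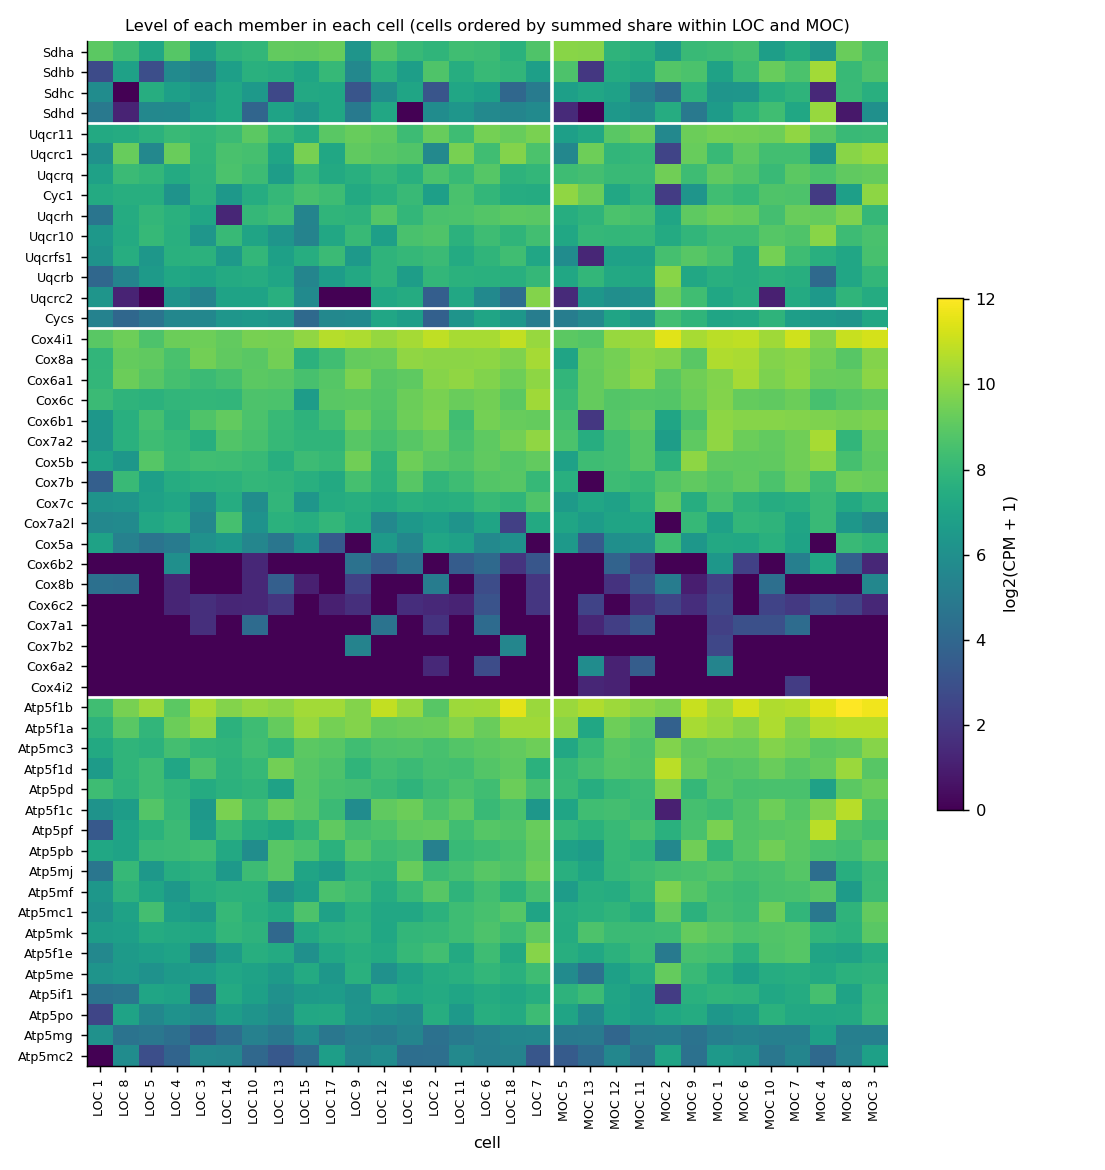
Level of each of the 50 members (rows, grouped by complex) in each of the 31 cells (columns, LOC left and MOC right, each ordered by summed share), as log2(CPM + 1). Cox4i1 and Atp5f1b are the brightest rows, the second isoforms of complex IV are the darkest, and single dark cells stand in otherwise bright rows such as Sdhd and Uqcrc2.

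Single members were nearly absent from single cells in both groups. Of the 50 members 36 had a read in all 31 cells, and each cell held reads of 42 to 48 members in LOC and 43 to 49 in MOC. Among the 41 members of at least 50 CPM, values below 10 CPM were found 19 times in 11 of 18 LOC cells and 17 times in 6 of 13 MOC cells. This is 2.57% of such values in LOC and 3.19% in MOC, against 19.7% in LOC and 23.4% in MOC over all genes of at least 50 CPM, many of which have lower levels than the members. MOC 2 and MOC 13 each held 5 such members, and they were different ones: Atp5f1c, Atp5if1, Cox7a2l, Cyc1 and Uqcrc1 in MOC 2, and Cox6b1, Cox7b, Sdhb, Sdhd and Uqcrfs1 in MOC 13. The SD over cells was higher in MOC than in LOC for 33 of 48 measured members, or 68.8%, against 50.3% of all measured genes. At 50 CPM or more it was higher in MOC for 28 of 41 members, or 68.3%, against 58.9% of genes. The members and genes share only that lower limit and were not matched in level.

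Members varied together across the 31 cells, though not to the same degree in each complex. Over the 903 pairs of the 43 members read in at least 28 cells, the median Spearman correlation of log2(CPM + 1) was 0.32. It was 0.56 within complex IV, 0.35 within complex V, 0.21 within complex III and 0.002 within complex II. With other groups the median was 0.28 for nuclear complex I genes, 0.26 for cytosolic ribosomal proteins, 0.11 for mitochondrially encoded protein genes and 0.01 for all other genes read in as many cells. All points share the library and its total, so these values describe the libraries. Within LOC cells alone the median over the pairs of members was 0.25 and within MOC cells alone 0.26.

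The members most closely tied to the mean of the others were Atp5mc3 at 0.80, Cox7b at 0.76 and Uqcrh at 0.76. Those least tied were Sdha at -0.13, Cox7a2l at 0.08 and Cyc1 at 0.15. Sdha and Cox7a2l were also the measured members whose summed levels were nearest to each other in LOC and MOC.

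The summed share of the members followed that of complex I most closely. Across the 31 cells the Spearman correlation with the share of nuclear complex I genes was 0.95 (Pearson 0.93), and 0.95 within LOC and 0.95 within MOC. Without the 2 cells farthest from the median share of complex I it was 0.94. With cytosolic ribosomal proteins it was 0.80, and 0.71 within LOC and 0.63 within MOC. With glycolytic genes it was 0.60, but 0.23 within LOC and 0.77 within MOC. With mitochondrially encoded genes it was -0.02. These are shares of the same total and are given as a description of the cells.

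**Figure D5:**
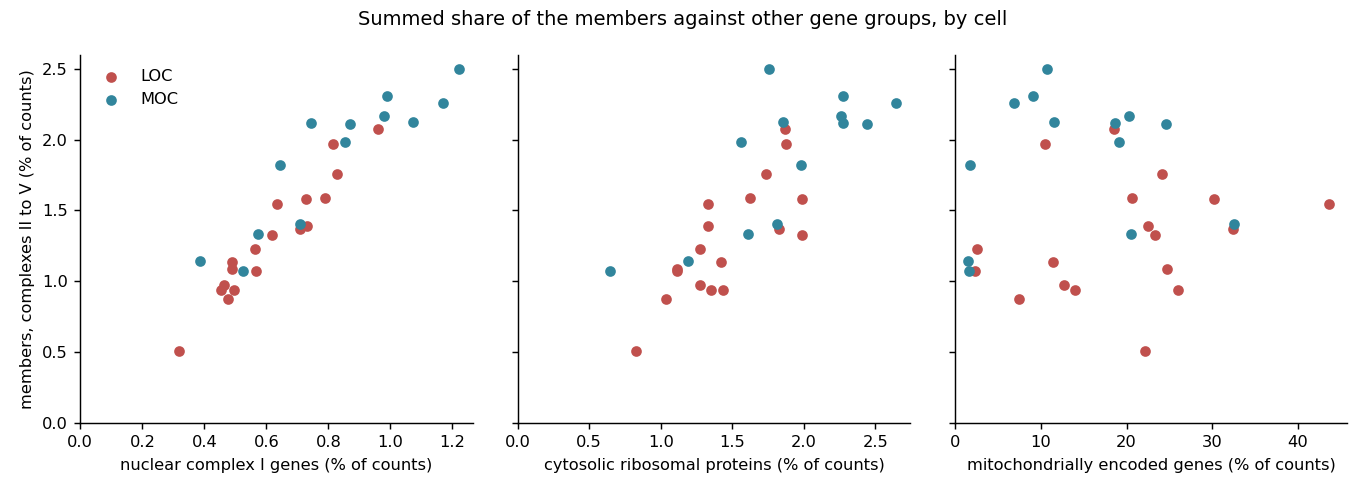
Summed share of the members (vertical axis, % of counts) against the shares of nuclear complex I genes, cytosolic ribosomal proteins and mitochondrially encoded genes (horizontal axes, % of counts), each point 1 cell. The points rise along a line with complex I (Spearman correlation 0.95) and show no trend with mitochondrially encoded genes (-0.02).

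Relative to complex I the groups were closer than by share of counts. The counts of the members were 1.603 to 2.44 times those of nuclear complex I genes in LOC, with a median of 2.12, and 1.93 to 2.96 times in MOC, with a median of 2.32. Among libraries with at least 10 cholinergic reads these medians were 2.12 in LOC and 2.13 in MOC, the closest of the library sets tried. The means stayed apart there, at 2.07 in LOC and 2.30 in MOC, where over all libraries they were 2.08 and 2.33. The 50 genes named Nduf, all measured, had a median difference of -0.24, with 1 past the rule in LOC (Ndufaf4, an assembly factor) and 4 past it in MOC (Ndufa9, Ndufa8, Ndufs8 and Ndufs1, all subunits). These are 2% of the list in LOC and 8% in MOC, where 6.07% of all measured genes were past it in LOC and 5.67% in MOC. Ndufa4, counted among them by name but known as a subunit of complex IV, had 489 CPM in LOC cells, against 795 CPM in MOC cells, with a difference of -0.69. Relative to ribosomal proteins the median ratio was 0.906 in LOC and 0.961 in MOC, and its order depended on the libraries. Among those with at least 10 cholinergic reads it was 0.823 in LOC and 0.946 in MOC. Without the 3 libraries highest in microglial markers it was 0.964 in LOC and 0.961 in MOC. With oligodendrocyte markers at most 10% of counts it was 0.971 in LOC and 0.961 in MOC. The median difference of 87 ribosomal protein genes was -0.15.

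The assembly factors of complexes II to V, which build the complexes without remaining in them, had a median difference of -0.08, near that of all genes. Of 38 measured factors none passed the size rule in LOC, whereas 4, or 10.53%, passed it in MOC, against 6.07% of all measured genes in LOC and 5.67% in MOC. They were Cmc2, at 4.42 CPM in LOC cells, against 29.1 CPM in MOC cells, Cmc1, at 9.61 CPM in LOC cells, against 47.1 CPM in MOC cells, and Cox15, at 6.31 CPM in LOC cells, against 16.9 CPM in MOC cells, all factors of complex IV. The fourth was Atpaf1, a chaperone of the ATP synthase head, at 12.9 CPM in LOC cells, against 54.0 CPM in MOC cells. A single MOC cell held 35.0% to 42.6% of the MOC counts of each, and no assembly factor of complex II or III met the rule.

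The regulators of mitochondrial gene expression had no common direction. Their median difference was 0.11 over 12 measured genes, 4 of them below 0, and none was past the size rule. Ppargc1a, a coactivator of respiratory genes, stood at 51.0 CPM in LOC cells, against 48.3 CPM in MOC cells. Nrf1, whose motif is marked in the sequences above, stood at 17.53 CPM in LOC cells and 19.4 CPM in MOC cells, and Gabpa, a part of GABP, at 16.97 CPM in LOC cells and 25.3 CPM in MOC cells. Their differences of means were wider than these sums show, at -1.10 for Nrf1 and -1.02 for Gabpa, and Nrf1 was detected in 10 of 18 LOC cells and 9 of 13 MOC cells, Gabpa in 14 LOC cells and 12 MOC cells.

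Subunits encoded in mitochondrial DNA were not lower in LOC as a group. The 5 measured genes of complexes III to V had a median difference of 0.41 and together took 4.52% of counts in LOC and 4.04% in MOC. Nearly all of these counts came from mt-Cytb, at 27405 CPM in LOC cells, against 20918 CPM in MOC cells, and mt-Co1, at 17822 CPM in LOC cells, against 19466 CPM in MOC cells. The deposited counts of mt-Co2, mt-Co3 and mt-Atp6 were under 10 CPM in both groups, so no balance of nuclear and mitochondrial subunits was drawn from them.

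The steps that feed the chain had differences of about the size of the members. The 16 genes of the citrate cycle had a median difference of -0.40, with 0 past the rule in LOC and 1 past it in MOC, Suclg1 of succinyl-CoA ligase at 129 CPM in LOC cells, against 266 CPM in MOC cells. The 16 genes of glycolysis had a median of -0.43, with 0 in LOC and 1 in MOC, Pgk1 at 89.6 CPM in LOC cells, against 222 CPM in MOC cells. In each of these 2 lists 1 gene is 6.25%, near the 5.67% of all measured genes past the rule in MOC. In LOC 6.07% of all measured genes were past it. The 8 genes of outer membrane channels and inner membrane carriers had a median of -0.51 and none past the rule. Among the lists of more than 1 gene set beside the members, the carriers were the only one with a wider median difference toward MOC than theirs.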

How the data were processed

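Single-cell RNA-seq counts were analysed for 18 LOC and 13 MOC libraries of 1 cell each, grouped by the cell type in the labels. The authors deposited raw counts of reads per gene. They also deposited normalized signal for 20784 of the genes, in which each column is the raw counts times 1 constant. GRCm38 is the build in the submitters' processing notes, which list STAR 2.5.2 among the software, with bcl2fastq, limma, edgeR and DESeq2. The way reads were counted and the fate of reads shared by several genes are steps not given in the sources used here. The kit does not mark strand, so a member's reads cannot be separated from those of a gene that overlaps it on the other strand. The 19 added sequences, 0.0173% of counts, were left out.

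CPM were computed on totals over 55421 mouse genes; a count of 0 allows 3 counts, or 1.14 to 8.42 CPM per cell. Means and SDs were taken of log2(CPM + 1), which understates differences of low genes. Lengths (the union of exons) and coordinates came from GENCODE M21 (55154 identifiers matched), and symbols from the deposited normalized table where it gave one. Poisson intervals are exact and cover counting error only. All genes were run through the same rule, and no p-value was made. The rule was tried on simulated data with planted differences much wider than those of most members. That trial cannot tell how the rule behaves at smaller differences. Members named in full were those past the size rule, the 2 highest per length of each complex, the widest differences, cytochrome c and the detected isoform pairs. Members, lists and rules were chosen with earlier results of these data known. The alternatives were other library sizes, from edgeR 4.0.16 and DESeq2 1.42.0 in R 4.3.3, another pseudocount, summary, filter, depth, fold and length, and subsets of libraries; Python 3.11.15 with numpy 2.4.6, pandas 2.3.3 and scipy 1.17.1 was used.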

Additional observations from a re-analysis of the deposited data

How the results depend on the processing

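No paired analysis was possible because the numbers shared by LOC and MOC labels only name cells, and the results come from no test. The number of members past the size rule in MOC, 4 as reported, was 2 with a pseudocount of 10 (1.18% of all genes), 8 with DESeq2 size factors (7.41%), 8 on summed counts alone (20.5%), 2 without libraries above 10% oligodendrocyte markers (5.16%), 18 at a fold of 1.5 (15.4%) and 0 at a fold of 3 (1.3%); the cause was not tested beyond the folds' own construction. It was 0 in LOC throughout. The median of complex III was 0.0771 and the difference of Uqcrc2 0.15 without the oligodendrocyte-rich libraries. The median level per length was 237.2 TPM in LOC and 387.4 in MOC, against 413.7 in LOC and 604.9 in MOC with the longest coding transcript.

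As each library was left out, the median difference lay between -0.55 and -0.37, the count in MOC between 2 and 5, the difference in mean share between -0.64 and -0.52 percentage points, and the medians between -0.75 and -0.27 (complex II), -0.66 and -0.29 (III), -0.54 and -0.37 (IV) and -0.59 and -0.36 (V). The Atp5mc3 share difference lay between -3.41 and -0.77 points and that of the second isoforms between -0.33 and 0.07. Scaling moved all genes: their median was -0.07 on totals, -0.13 with TMM and -0.15 with DESeq2, and the members' median less that of all genes was -0.37 on totals, -0.42 with TMM and -0.45 with DESeq2. Of all genes past the size rule 51.7% were higher in LOC on totals and 38.8% with DESeq2. The median correlation of member pairs was 0.42 with TMM and 0.46 with DESeq2 sizes, and these 2 fits, the groups taken alone and the set that leaves out libraries of 0 cholinergic reads were added after the data were seen. At 3 counts, low isoforms such as Cox4i2 are at the limit of depth.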
